A study of Mus musculus with 13 samples.

Results

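Brain vessels of 5 mice given lipopolysaccharide (LPS) and drug vehicle were compared with those of 4 sham-vehicle mice, 9 of the 13 mice in the series, across all 17285 expressed genes of the 47643 listed. All were male CD1 mice, an outbred stock, aged 8 to 10 weeks. The LPS-vehicle mice received LPS of Salmonella enterica typhimurium into the peritoneum at 3 mg/kg at 0, 6 and 24 h, and vehicle stands for the DMSO, Cremophor and saline in which the study's drug was given under the skin after each dose. The label of the sham-vehicle mice names no LPS and the series text names PBS for mice without it, but whether they received PBS, drug vehicle or both is not given in the sources used here. Brains were frozen 28 h after the first dose, 4 h after the last, and their vessels were isolated with extra sucrose washes against myelin. The brains were not perfused, so blood within the vessels is part of the material. The remaining 4 mice received LPS with CPD-4645, an inhibitor of monoacylglycerol lipase, and entered only the shared estimate of the spread between mice. Each library came from 1 mouse.

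The blood-brain barrier is formed by endothelial cells that are sealed by tight junctions and that carry transporters for glucose, amino acids, hormones and organic anions on a background of few vesicles. Pericytes, smooth muscle cells, astrocyte endfeet and a basement membrane surround these cells, and microglia and perivascular macrophages contact the vessel wall. LPS given outside the brain acts on endothelial and immune cells through Toll-like receptor 4, and it is used as a model of systemic inflammation, which also raises circulating glucocorticoids.

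Counts per library ran from 7813559 (LPS-vehicle mouse 3) to 55133373. Expression is given below as CPM, read counts scaled to a common library size with TMM factors, and a change as log2 of LPS-vehicle over sham-vehicle with its standard error (SE). The threshold was a change of 2-fold or more together with an edgeR quasi-likelihood p of 0.05 or less after Benjamini-Hochberg adjustment over all genes. By this rule 5.68% of all genes tested passed, 4.68% higher and 0.995% lower, and at the adjusted p alone 11.1% were higher and 8.86% lower. In 9.68% of genes all LPS-vehicle mice were above all sham-vehicle mice, and in 8.44% all were below. The median log2 fold change of all genes tested was 0.00. The edgeR p values set the difference between groups against the spread between mice, which was estimated from all 13 mice.

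The material was called neurovasculature, and its markers were checked in the sham-vehicle mice per kilobase of exon, the scale on which genes can be compared. The endothelial genes *Pecam1* and *Cldn5* stood at 4.71 and 75.9 CPM per kb, the pericyte gene *Pdgfrb* at 6.39 and the astrocyte gene *Gfap* at 22.6. The neuronal genes *Snap25* and *Syp* stood at 508 and 458 CPM per kb and the microglial gene *Aif1* at 4.42. These 2 neuronal transcripts were therefore present at higher levels than those of the vessel markers just given. *Bsg*, the most abundant of the pan-endothelial genes, stood at 568 CPM per kb, above both. By RT-qPCR the study reported little *Syp* and *Aif1* beside *Gfap*, *Pdgfrb* and *Pecam1*. Mitochondrial genes took 6.47 to 12.7% of the counts in sham-vehicle mice and 4.84 to 7.05% after LPS, a mean difference of -3.01 percentage points (exact permutation test, two-sided p = 0.0635). The difference was -3.94 points (p = 0.0357, exact permutation test) without sham-vehicle mouse 2 and -1.86 points (p = 0.143, exact permutation test) without sham-vehicle mouse 4. In bulk tissue, fewer cells of a type and less RNA per cell cannot be told apart.

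Most of the vascular and cell type lists held genes past the threshold, and the direction differed between lists. Over all 58 lists 283 of 1142 tested members passed as higher and 57 as lower, against 4.68% and 0.995% of all genes. Together 29.8% of members passed, against 5.68% of all genes. The lists were written with earlier results of these data known, so that excess is no independent result. By gene type, 742 of 15147 protein-coding genes were higher and 146 lower, with a median of -0.01. Of 1256 long noncoding RNA genes 38 were higher and 17 lower, together 4.38%, against 5.68% of all genes. Without sham-vehicle mouse 1, 2, 3 or 4 the noncoding genes that were lower numbered 10, 8, 11 and 8, and without LPS-vehicle mouse 1 they numbered 9.

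**Figure D1:**
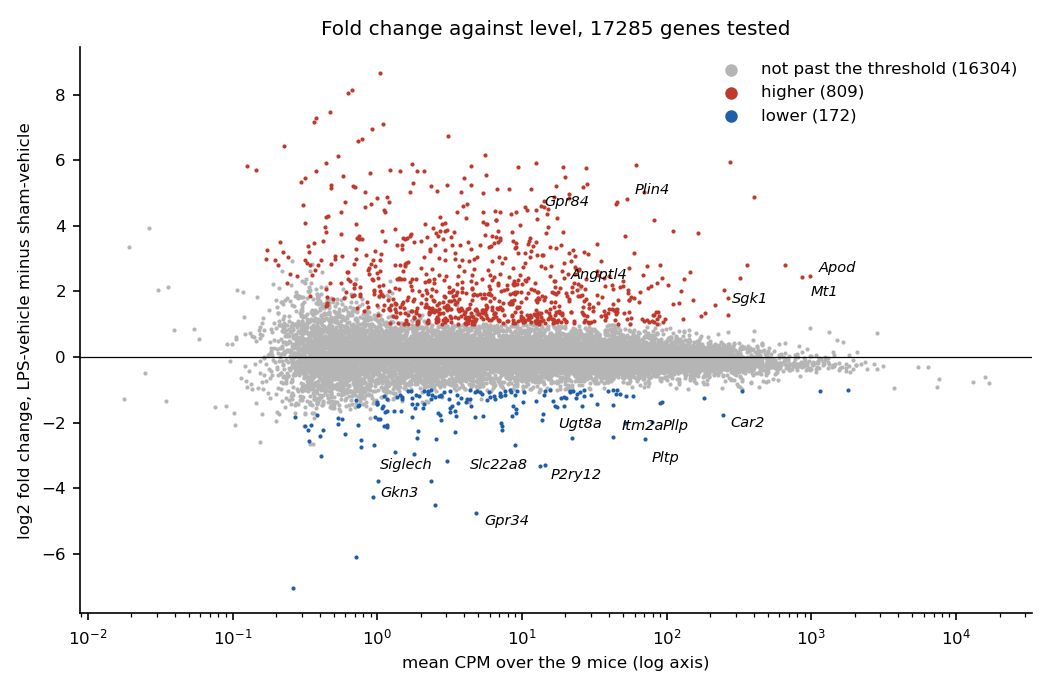
Log2 fold change (LPS-vehicle minus sham-vehicle, vertical axis) against mean CPM over the 9 mice (log axis), 1 point per gene, for 17285 genes. Red points are the 809 genes past the threshold as higher and blue points the 172 as lower, and the named genes among the falls include transporter, endothelial, microglial and myelin genes.

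**Figure D2:**
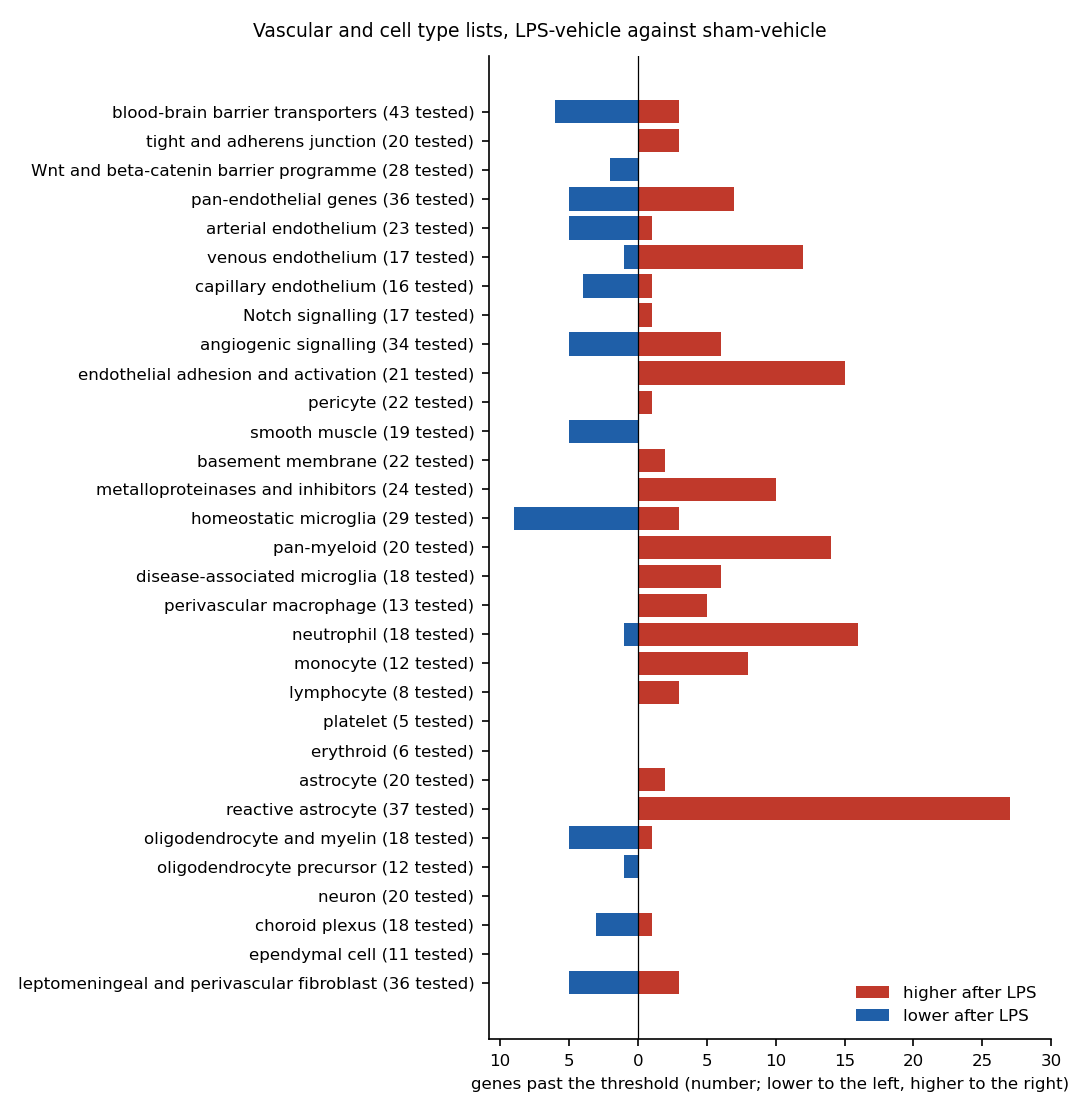
Number of genes past the threshold in each vascular and cell type list, higher after LPS to the right and lower to the left, with the number tested beside each name. Falls reached 9 in the homeostatic microglia list and 6 among blood-brain barrier transporters, while the adhesion, venous, reactive astrocyte and neutrophil lists moved upward.

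Sequence before the start of a gene is shown for 7 genes of 4 lists, each with a motif of a factor known for genes of that list. Windows are the 250 bases before a start in RefSeq's table for GRCm38.p6, printed 5′ to 3′ on the gene's strand, and the table holds a promoter for 12546 of the tested genes. Capitals mark a match, on either strand, to a motif that was chosen after the values were seen. A match is a description of letters, and the binding of a factor was not measured.

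The glucocorticoid response element, searched as GNACA and TGTNC with 3 bases between them, was held by 46 of the 12546 promoters (0.367%) and by 3 of the 24 glucocorticoid-responsive genes with a promoter. These were *Sgk1*, a kinase, *Map3k6*, another kinase, and *Mt1*, a metallothionein. All 3 rose after LPS, as described below, and their matches start 188, 181 and 94 bases before the start. *Sgk1* has 6 windows in the table, of which the one with the match is shown.
Sgk1, chr10:21993640-21993889, + strand: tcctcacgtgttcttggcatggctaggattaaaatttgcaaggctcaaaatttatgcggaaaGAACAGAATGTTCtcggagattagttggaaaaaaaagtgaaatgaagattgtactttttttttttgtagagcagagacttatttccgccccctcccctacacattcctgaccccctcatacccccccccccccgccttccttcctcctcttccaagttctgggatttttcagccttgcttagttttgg
Map3k6, chr4:133240568-133240817, + strand: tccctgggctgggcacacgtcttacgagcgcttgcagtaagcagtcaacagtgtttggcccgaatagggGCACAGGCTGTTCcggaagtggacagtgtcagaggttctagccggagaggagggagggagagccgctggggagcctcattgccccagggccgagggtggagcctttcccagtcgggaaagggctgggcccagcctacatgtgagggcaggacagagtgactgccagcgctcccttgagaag
Mt1, chr8:94178839-94179088, + strand: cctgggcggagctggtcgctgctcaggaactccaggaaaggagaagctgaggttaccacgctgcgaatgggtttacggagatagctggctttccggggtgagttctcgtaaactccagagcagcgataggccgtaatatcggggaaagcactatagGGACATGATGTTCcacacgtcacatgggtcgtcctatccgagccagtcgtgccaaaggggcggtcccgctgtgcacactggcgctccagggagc

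The interferon-stimulated response element, searched as a pair of GAAA with 2 bases between them, was held by 398 promoters (3.17%) and by 10 of the 11 interferon-induced GTPase genes with one. Shown are *Igtp* and *Gbp7*, which encode GTPases that act on the membranes around intracellular microbes. Their matches start 34 and 53 bases before the start, and that of *Gbp7* reads on the other strand.
Igtp, chr11:58199306-58199555, + strand: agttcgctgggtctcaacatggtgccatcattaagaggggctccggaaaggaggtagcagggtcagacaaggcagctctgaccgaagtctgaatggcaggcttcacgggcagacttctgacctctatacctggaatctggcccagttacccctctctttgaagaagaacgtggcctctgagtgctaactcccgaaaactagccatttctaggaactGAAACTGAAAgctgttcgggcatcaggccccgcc
Gbp7, chr3:142530086-142530335, + strand: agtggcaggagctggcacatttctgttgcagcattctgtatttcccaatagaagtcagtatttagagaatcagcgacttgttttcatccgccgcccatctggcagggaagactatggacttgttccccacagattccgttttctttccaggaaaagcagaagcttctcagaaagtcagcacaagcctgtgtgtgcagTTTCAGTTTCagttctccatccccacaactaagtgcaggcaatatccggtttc

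The NF-kappaB site, searched as GGGA and TTTCC with 1 base between them, was held by 62 promoters (0.494%) and by 3 of the 15 NF-kappaB subunit and inhibitor genes with one, *Cyld*, *Nfkb2* and *Nfkbia*. A Sox site, searched as ACAATNG, was held by 655 promoters (5.22%) and by 4 of 15 oligodendrocyte and myelin genes, *Aspa*, *Ermn*, *Gjb1* and *Hapln2*. Shown are *Nfkbia*, which encodes the inhibitor that retains NF-kappaB in the cytoplasm and which rose, and *Gjb1*, which encodes connexin 32 of oligodendrocytes and which fell. Their matches start 29 and 48 bases before the start, both reading on the other strand, and *Gjb1* has 4 windows.
Nfkbia, chr12:55492648-55492897, - strand: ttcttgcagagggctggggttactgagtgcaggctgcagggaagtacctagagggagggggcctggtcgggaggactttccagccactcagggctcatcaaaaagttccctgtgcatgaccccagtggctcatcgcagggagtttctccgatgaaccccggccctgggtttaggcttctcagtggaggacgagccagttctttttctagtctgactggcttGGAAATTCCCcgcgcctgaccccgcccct
Gjb1, chrX:101383482-101383731, + strand: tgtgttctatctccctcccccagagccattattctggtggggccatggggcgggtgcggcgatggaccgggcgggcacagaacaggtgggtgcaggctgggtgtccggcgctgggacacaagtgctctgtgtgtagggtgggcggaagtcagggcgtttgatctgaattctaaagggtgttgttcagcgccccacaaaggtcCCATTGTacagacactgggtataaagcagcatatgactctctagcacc

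For 3 further motifs the shares in the list and in all promoters were as follows. The metal response element TGCGCNC was held by 2978 promoters (23.7%) and by 3 of 10 metallothionein and zinc genes. The E-box CACGTG was held by 1168 promoters (9.31%) and by 5 of 17 clock genes. The PU.1 site GAGGAAGT, read by the myeloid factor of that name, was held by 342 promoters (2.73%) and by 1 of 19 homeostatic microglia genes, *Adora3*.

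Of 43 transporter genes of the barrier, 6 passed as lower (background 0.995%) and 3 as higher (background 4.68%), and the median was -0.26. At the adjusted p alone 13 were lower (background 8.86%) and 7 higher (background 11.1%). The largest fall was that of *Slc22a8* (chromosome 19, 8591254 to 8611835 of GRCm38), which encodes an organic anion transporter of the barrier. Its CPM in the 4 sham-vehicle mice were 34.2, 25.98, 29.5 and 26.2, and in the 5 LPS-vehicle mice 2.99, 2.26, 1.26, 3.998 and 3.58, so that the groups did not overlap. *Slc16a4*, of the monocarboxylate transporter family, stood at 6.25, 4.91, 4.82 and 2.81 CPM in sham-vehicle mice and at 0.790, 0.646, 0.504, 0.767 and 1.34 after LPS, a log2 fold change of -2.49 (SE 0.31). *Slc40a1* (chromosome 1, 45908068 to 45926523) encodes ferroportin, the iron exporter. Its levels were 15.9, 11.3, 15.3 and 9.43 CPM in sham-vehicle mice and 2.82, 2.40, 2.52, 3.04 and 3.01 CPM after LPS, a change of -2.23 (SE 0.22) with an edgeR adjusted p of 9.0e-07.

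*Slco1c1*, which encodes the thyroxine transporter of brain endothelium, stood at 82.2, 69.7, 62.2 and 49.4 CPM in sham-vehicle mice. After LPS it stood at 21.9, 18.4, 13.6, 40.3 and 23.1 CPM, with mouse 4 highest yet below every sham-vehicle mouse, and its log2 fold change was -1.47 (SE 0.21). *Slc38a5*, an amino acid transporter, changed by -1.81 (SE 0.37). *Slc7a5*, a large neutral amino acid transporter gene, changed by -0.73 (SE 0.13) and *Slc16a1*, which encodes the monocarboxylate transporter MCT1, by -0.55 (SE 0.10), each with an adjusted p under the threshold but a change under 2-fold. *Bsg*, which encodes basigin, a partner of monocarboxylate transporters, fell from 1030 ± 80.2 CPM (SD, n = 4) to 683 ± 82.4 CPM (SD, n = 5), a log2 fold change of -0.59 without overlap (edgeR adjusted p = 1.1e-04).

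Other genes of the same list moved upward or were not separated. *Slc2a1*, which encodes the glucose transporter GLUT1, stood at 196, 247, 188 and 130.5 CPM in sham-vehicle mice and at 316, 382, 183, 382 and 349 after LPS, overlapping groups that differed by 0.76 (SE 0.18) with an edgeR adjusted p of 0.0066. The efflux pump genes *Abcb1a* and *Abcg2* had log2 fold changes of -0.45 and -0.36, with adjusted p values of 0.14 and 0.14 (edgeR). The 3 genes that passed as higher, *Mfsd2a*, *Abca1* and *Ager*, lay at log2 fold changes of 1.02, 1.02 and 1.03, next to the 2-fold limit. Their number was 1 in limma-voom, 0 without sham-vehicle mouse 4 and 1 without LPS-vehicle mouse 1 or 4. Among all 310 tested solute carrier genes, 16 were higher (background 4.68%) and 10 lower (background 0.995%), with a median of -0.01. Together they were 8.39% of the family, against 5.68% of all genes.

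Outside the barrier list, *Slc22a6* and *Slc47a1*, which encode organic anion and organic cation transporters and were listed with the fibroblast genes, changed by -1.92 (SE 0.39) and -2.25 (SE 0.44). *Abcc6* changed by -2.09 (SE 0.55). For all 3 every LPS-vehicle mouse lay below every sham-vehicle mouse. Rises were seen for *Slc39a14*, a zinc and iron importer, at 1.29 (SE 0.15), *Slc11a1*, the metal transporter of phagocyte lysosomes, at 2.07 (SE 0.23), and *Slc15a3*, a peptide transporter that overlaps *Tmem132a* on the other strand, at 2.86 (SE 0.39).

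**Figure D3:**
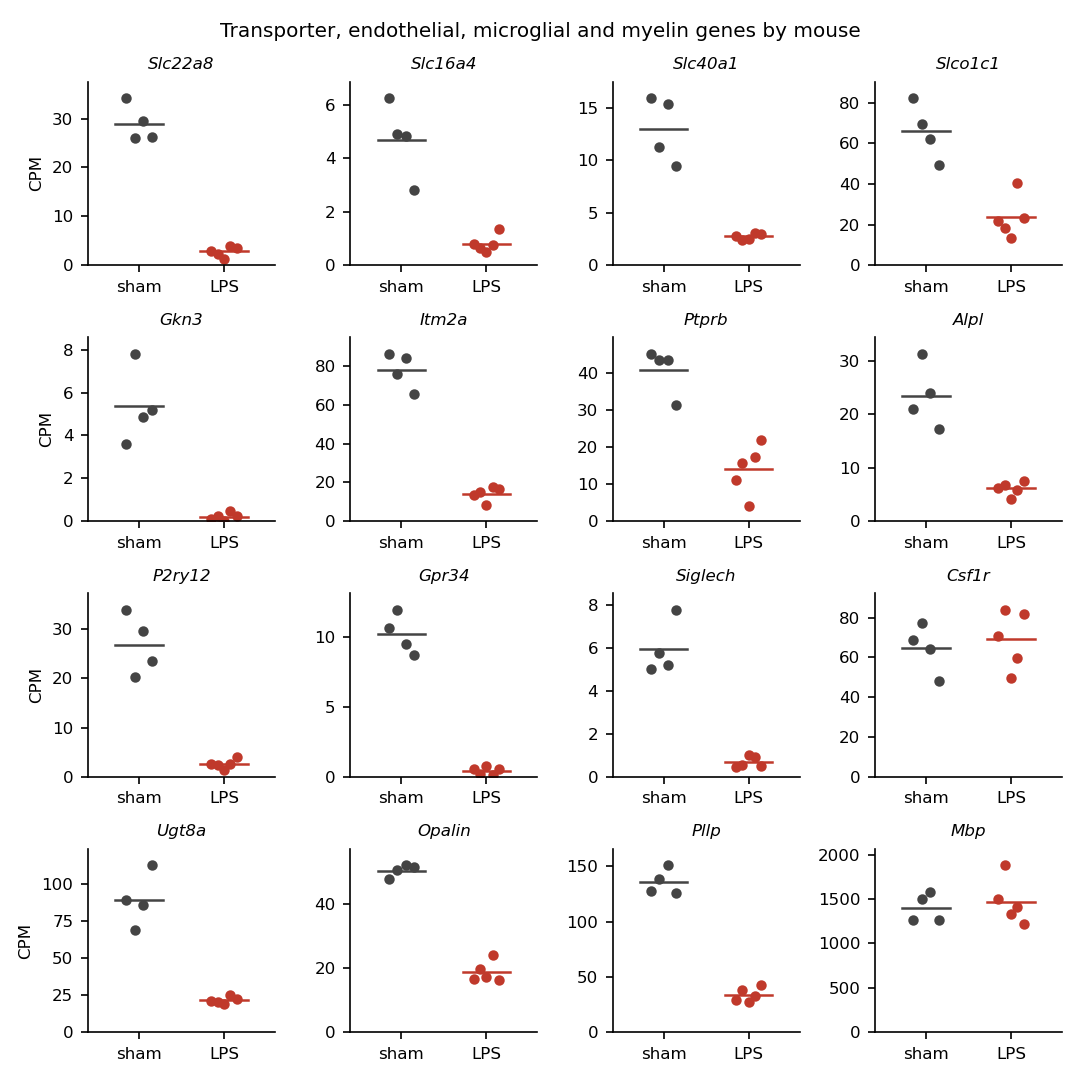
CPM of 16 genes in each mouse (vertical axes start at 0), with sham-vehicle mice in grey and LPS-vehicle mice in red, and group means as bars. For the transporter, endothelial and most of the microglial and myelin genes every LPS-vehicle mouse lies below every sham-vehicle mouse, whereas *Csf1r* and *Mbp* overlap.

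In the venous list 12 of 17 genes passed as higher and 1 as lower, with a median of 1.74. In the arterial list 5 of 23 passed as lower and 1 as higher, with a median of -0.22, and in the capillary list 4 of 16 passed as lower and 1 as higher, with a median of -0.25. Leaving out sham-vehicle mouse 1 or LPS-vehicle mouse 1 gave 2 higher arterial genes, and the higher capillary gene numbered 2 without sham-vehicle mouse 1 or LPS-vehicle mouse 1 or 3 and 0 without sham-vehicle mouse 4 or LPS-vehicle mouse 4 or 5. The venous list holds *Sele*, *Selp*, *Icam1* and *Vcam1*, adhesion molecules of activated endothelium. The summed CPM of the 36 pan-endothelial genes overlapped between groups, at 1781 to 2319 in sham-vehicle and 1666 to 2515 in LPS-vehicle mice, with LPS-vehicle mouse 3 lowest.

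The arterial gene *Gkn3* (chromosome 6, 87383256 to 87388935), a marker of brain arterial endothelium, stood at 3.59, 7.80, 4.86 and 5.18 CPM in sham-vehicle mice. After LPS it stood at 0.0687, 0.215, 0, 0.466 and 0.238 CPM, and all 5 mice lay below the lowest sham-vehicle mouse. *Alpl*, which encodes tissue-nonspecific alkaline phosphatase of the endothelial surface, stood at 20.9, 31.3, 24.02 and 17.2 CPM and after LPS at 6.21, 6.82, 4.03, 5.89 and 7.54 CPM, a log2 fold change of -1.91 (SE 0.19) without overlap. *Mgp*, which encodes an inhibitor of calcification, rose by 1.13 (SE 0.15) on the log2 scale. Of the venous genes, *Ackr1*, which encodes the chemokine-binding receptor of venules and overlaps *Cadm3* on the same strand, stood at 45.1, 45.9, 47.4 and 49.7 CPM and after LPS at 118, 202, 108, 75.7 and 99.2 CPM. All 5 LPS-vehicle mice lay above the sham-vehicle mice, with LPS-vehicle mouse 2 highest.

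In the pan-endothelial list 7 of 36 genes were higher and 5 lower. *Itm2a* (chromosome X, 107397099 to 107403376), a membrane protein gene of brain endothelium, stood at 86.5, 75.9, 84.6 and 65.6 CPM in sham-vehicle mice and at 13.7, 15.03, 8.19, 17.6 and 16.4 after LPS, a log2 fold change of -2.43 (SE 0.18). *Ptprb*, which encodes the endothelial phosphatase VE-PTP and overlaps *Gm26495* on the same strand, stood at 45.3, 43.7, 43.7 and 31.4 CPM and after LPS at 11.2, 15.6, 4.03, 17.4 and 21.9 CPM. *Tek*, which encodes the receptor Tie2 that VE-PTP acts on, changed by -1.49 (SE 0.31). LPS-vehicle mouse 3 was lowest for all 3 genes, and each kept its call without that mouse. In contrast *Ly6a*, which encodes the surface protein Sca-1, stood at 37.5, 35.7, 52.1 and 34.3 CPM and after LPS at 245, 217, 123, 207 and 231 CPM. *Rasip1*, a vessel lumen gene that overlaps *Izumo1* on the same strand, rose by 2.07 (SE 0.19) and *Nos3*, endothelial nitric oxide synthase, by 1.15 (SE 0.21) on the log2 scale.

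Of 20 tight and adherens junction genes, 3 passed as higher, and the median was 0.19. They were *F11r*, which encodes JAM-A, at 1.12 (SE 0.12), *Cdh5*, VE-cadherin, at 1.14 (SE 0.16), and *Esam* at 1.16 (SE 0.12), each without overlap. *F11r* stood at 11.2, 8.65, 10.1 and 10.3 CPM in sham-vehicle mice and at 21.8, 23.8, 21.6, 20.2 and 22.1 CPM after LPS. *Cldn5*, the main claudin of the barrier, differed by 0.66 (SE 0.18) and *Pecam1* by 0.79 (SE 0.19), both with overlapping groups and an edgeR adjusted p of 0.013 and 0.0055. *Ocln*, which encodes occludin, lay at -0.53 (SE 0.24), with an adjusted p of 0.14 (edgeR).

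Of 28 genes of the Wnt and beta-catenin barrier programme, which sets barrier identity in development, 2 passed as lower, and the median was -0.34. *Sox17* (overlapping *Gm37587* on the other strand), a transcription factor downstream of this pathway, stood at 14.8, 19.1, 17.7 and 7.85 CPM and after LPS at 4.22, 3.39, 1.89, 7.53 and 5.01 CPM. *Notum*, a secreted Wnt inhibitor and target gene that overlaps *Notumos* and *Myadml2os*, changed by -1.68 (SE 0.37). At the adjusted p alone 8 genes of the list were lower (background 8.86%) and 2 higher (background 11.1%).

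Of 34 angiogenic signalling genes 6 were higher and 5 lower (3 lower without LPS-vehicle mouse 1). *Angpt2*, which encodes a Tie2 ligand stored and released by activated endothelium and overlaps *Mcph1* on the other strand, stood at 2.17, 2.33, 2.03 and 1.58 CPM in sham-vehicle mice and at 12.02, 14.8, 21.1, 17.2 and 30.3 after LPS, a log2 fold change of 3.22 (SE 0.35). Its receptor gene *Tek* was lower in the same mice, as given above. *Angptl4*, an inhibitor of lipoprotein lipase, stood at 6.02, 5.55, 4.82 and 2.96 CPM and after LPS at 37.6, 30.1, 32.6, 29.1 and 21.8 CPM. *Adm*, adrenomedullin, rose by 1.44 (SE 0.21). *Cxcl12*, a chemokine made by endothelium in the resting brain, changed by -1.18 (SE 0.13), and *Aplnr*, the apelin receptor, by -2.10 (SE 0.51). In the adhesion and activation list 15 of 21 genes passed as higher, with a median of 1.75, and the number stayed at 15 in each fit without 1 mouse.

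**Figure D4:**
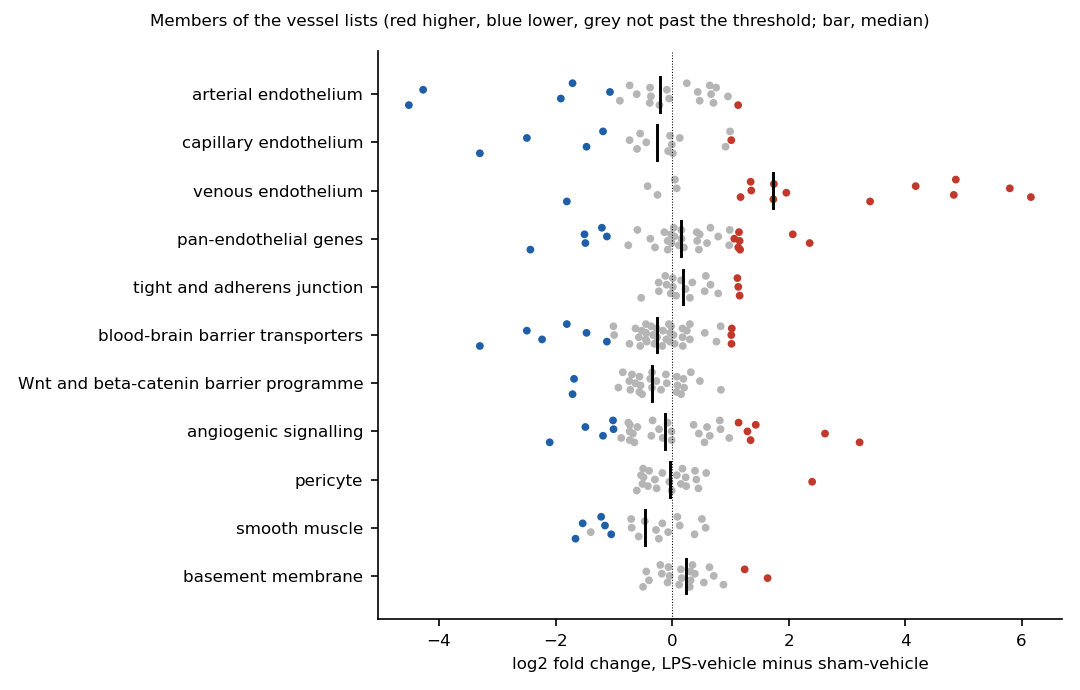
Log2 fold change (LPS-vehicle minus sham-vehicle, horizontal axis) of every tested member of 11 vessel lists, 1 point per gene, in red where higher, blue where lower and grey where not past the threshold, with the median of each list as a bar. The venous list lies to the right, with a median of 1.74, and the arterial, capillary, transporter and smooth muscle lists have tails to the left.

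Of 19 genes of contractile smooth muscle 5 passed as lower (3 without sham-vehicle mouse 3), and the median was -0.47. *Myl9*, a myosin light chain, stood at 28.1, 28.1, 34.8 and 20.4 CPM in sham-vehicle mice and at 7.04, 10.2, 4.16, 10.5 and 14.9 CPM after LPS, without overlap. *Myh11*, smooth muscle myosin heavy chain, changed by -1.22 (SE 0.25), and *Pln*, phospholamban, which overlaps *Cep85l* on the other strand, by -1.66 (SE 0.40). The summed CPM of the list were 484 to 554 in sham-vehicle and 424 to 469 in LPS-vehicle mice. Of 22 pericyte genes 1 passed, *Ifitm1*, an interferon-induced gene, which rose from 5.74 ± 1.74 CPM (SD, n = 4) to 30.6 ± 6.03 CPM (SD, n = 5). *Pdgfrb* and *Rgs5* had log2 fold changes of 0.39 (SE 0.13) and -0.49 (SE 0.14) with overlapping groups.

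In the vessel matrix, *Col4a1* and *Col4a2*, which encode the collagen IV chains of the basement membrane and overlap each other on opposite strands, were the 2 of 22 basement membrane genes that passed, both higher. *Col4a1* stood at 65.8, 49.3, 56.5 and 50.9 CPM in sham-vehicle mice and at 164, 207, 138, 165 and 192 CPM after LPS, and *Col4a2* changed by 1.25 (SE 0.15). Of 24 metalloproteinase and inhibitor genes 10 passed as higher, with a median of 0.80. *Adamts9*, which encodes a proteoglycan-cleaving protease, stood at 5.53, 6.64, 4.06 and 4.05 CPM and after LPS at 58.3, 70.9, 41.7, 55.7 and 48.1 CPM. *Adamts1*, of the same family, rose by 3.18 (SE 0.24). *Timp1*, an inhibitor of these enzymes, which overlaps *Syn1* on the other strand, rose by 4.57 (SE 0.39) on the log2 scale. The neutrophil products *Mmp8* and *Mmp9* are in this list as well, and the summed neutrophil markers given below rose in the same mice.

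Of 36 leptomeningeal and perivascular fibroblast genes 5 were lower and 3 higher, with a median of -0.25. *Apod*, an apolipoprotein gene, was among the most abundant genes that rose, at 329, 277, 298 and 223 CPM in sham-vehicle mice and 1295, 1787, 1515, 1118 and 2030 CPM after LPS. *Serping1*, the C1 inhibitor gene, rose by 1.86 (SE 0.22). *Ogn*, the matrix gene osteoglycin, which overlaps *Cenpp*, changed by -1.56 (SE 0.39). Outside the lists, *Pltp*, which encodes phospholipid transfer protein and overlaps *Ctsa* on the other strand, stood at 136, 163, 143 and 85.97 CPM and after LPS at 23.1, 29.6, 15.9, 20.6 and 24.7 CPM, a log2 fold change of -2.51 (SE 0.16). *Angptl2*, a secreted angiopoietin-like protein gene overlapping *Ralgps1*, changed by -2.28 (SE 0.32).

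Of 29 homeostatic microglia genes, known from microglia of the resting brain, 9 passed as lower and 3 as higher, with a median of -0.39. *Gpr34* (chromosome X, 13632089 to 13640858, overlapping *Cask* on the other strand), a lysophosphatidylserine receptor gene, stood at 10.7, 11.99, 9.56 and 8.74 CPM in sham-vehicle mice and at 0.515, 0.197, 0.756, 0.137 and 0.566 CPM after LPS. *P2ry12*, the ADP receptor by which microglial processes reach sites of injury, stood at 33.97, 20.3, 29.6 and 23.6 CPM and after LPS at 2.58, 2.39, 1.39, 2.49 and 4.05 CPM. Its neighbour *P2ry13*, which like *P2ry12* overlaps *Med12l* on the other strand, changed by -2.01 (SE 0.37). *Siglech*, a sialic acid-binding lectin gene of microglia, stood at 5.02, 5.79, 5.22 and 7.80 CPM and after LPS at 0.446, 0.556, 1.01, 0.931 and 0.507 CPM. For all of these genes the groups did not overlap. *Ltc4s*, leukotriene C4 synthase, changed by -2.46 (SE 0.42).

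Members of the same list moved the other way or overlapped. *Gpr84*, a medium-chain fatty acid receptor gene, stood at 1.71, 0.845, 0.637 and 0.543 CPM in sham-vehicle mice and at 26.1, 24.4, 23.9, 22.1 and 12.5 CPM after LPS. *P2ry6*, the UDP receptor linked to phagocytosis, rose by 1.23 (SE 0.30). *Csf1r*, the receptor on which microglial survival depends, stood at 68.8, 77.5, 64.3 and 48.05 CPM and after LPS at 70.7, 84.05, 49.5, 59.8 and 81.7 CPM, and its log2 fold change of 0.10 (SE 0.16) became -0.01 without sham-vehicle mouse 4. *Tmem119*, a microglial membrane protein gene, differed by -0.73 (SE 0.33) and passed as lower, at -1.19, in the fit without LPS-vehicle mouse 5. The summed CPM of the list were 977 to 1136 in sham-vehicle and 814 to 1012 in LPS-vehicle mice. Its most abundant member, *Bin1*, made up a large part of these sums and did not pass, so they say little about the genes that fell.

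Of 20 pan-myeloid genes 14 passed as higher, with a median of 1.5. *C1qa*, a complement subunit made by microglia and macrophages, stood at 27.6, 28.5, 31.7 and 18.7 CPM and after LPS at 108, 128, 89.7, 70.8 and 171 CPM. *Aif1*, which encodes Iba1, had a log2 fold change of 0.55 (SE 0.20) (edgeR adjusted p = 0.055). Of 13 perivascular macrophage genes 5 were higher, and of 18 disease-associated microglia genes 6. *Ms4a6d*, one of 6 higher genes among 7 tested members of the Ms4a family, stood at 2.17, 1.005, 0.717 and 0.938 CPM and after LPS at 29.1, 26.2, 25.3, 17.5 and 30.3 CPM.

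Neutrophil and monocyte markers were higher in the same mice, and their part in the myeloid rises was not tested. Of 18 neutrophil genes 16 were higher and 1 lower, with a median of 4.74 (4.70 with genes at the floor of 3 counts set to their bound). The summed CPM of the list were 17.8 to 23.3 in sham-vehicle and 102 to 351 in LPS-vehicle mice, with LPS-vehicle mouse 2 highest. *S100a9*, a calprotectin subunit of neutrophils, stood at 2.08, 1.57, 0.677 and 0.593 CPM and after LPS at 35.6, 113, 44.99, 24.6 and 28.9 CPM. *Ngp*, a granule protein gene, rose by 4.89 (SE 0.64). *Padi4*, a histone citrullinating enzyme gene and the member that fell, stood at 1.82, 5.59, 3.86 and 7.31 CPM and after LPS at 0.0343, 0.448, 1.76, 0.0548 and 0.179 CPM. Of 12 monocyte genes 8 were higher, and the sums of the list were 71.8 to 95.5 and 121 to 157 CPM. Most of the sham-vehicle sum came from 2 genes that did not pass, *Nr4a1* at 46.1 ± 13.2 CPM (SD, n = 4) against 37.8 ± 8.14 CPM (SD, n = 5) after LPS and *Ace* at 19.2 ± 2.61 CPM (SD, n = 4) against 25.97 ± 5.92 CPM (SD, n = 5). Of 8 lymphocyte genes 3 passed as higher in edgeR and 1 in limma-voom, and of 5 platelet genes 1 was higher at the adjusted p alone.

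Erythroid genes were lower at the adjusted p alone. All 6 tested members had a log2 fold change below 0, with a median of -0.79, and 6 had an edgeR adjusted p of at most 0.05. At the 2-fold threshold 0 passed in edgeR, limma-voom and DESeq2, and 1 or 2 passed in the fits without sham-vehicle mouse 2, 3 or 4 or without LPS-vehicle mouse 1, 2, 3 or 4. In edgeR 6 were lower at an unadjusted p under 0.05. *Hbb-bs*, beta globin, had a log2 fold change of -0.84 (SE 0.23). Their summed CPM were 1105 to 1535 in sham-vehicle and 711 to 1004 in LPS-vehicle mice.

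**Figure D5:**
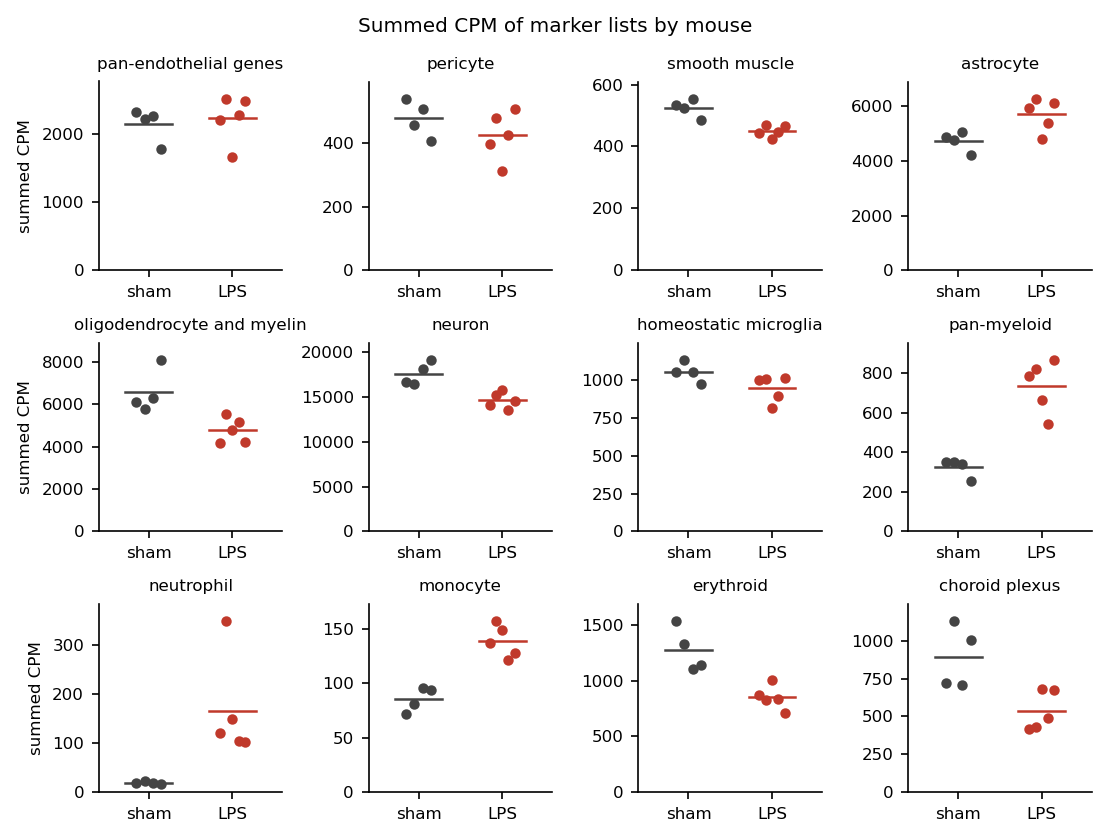
Summed CPM of 12 marker lists in each mouse (vertical axes start at 0), with sham-vehicle mice in grey, LPS-vehicle mice in red and group means as bars. Neutrophil and monocyte sums are higher in every LPS-vehicle mouse, oligodendrocyte and neuron sums are lower in every LPS-vehicle mouse, and the endothelial and pericyte sums overlap.

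Of 18 oligodendrocyte and myelin genes 5 passed as lower, 1 as higher and 12 did not pass, and the median was -0.56. At the adjusted p alone 10 were lower (background 8.86%) and 2 higher. *Ugt8a*, which encodes the enzyme that makes galactosylceramide for myelin, stood at 89.3, 68.98, 85.3 and 112 CPM in sham-vehicle mice and at 21.2, 20.7, 19.3, 24.9 and 22.5 CPM after LPS, a log2 fold change of -2.03 (SE 0.14). *Opalin*, a myelin membrane protein gene, stood at 47.9, 50.6, 52.1 and 51.5 CPM and after LPS at 16.5, 19.8, 17.4, 24.01 and 16.2 CPM. *Gjb1*, whose sequence is shown above, stood at 26.98, 33.2, 34.3 and 27.8 CPM and after LPS at 7.97, 13.2, 9.20, 10.4 and 12.8 CPM. The groups of these 3 genes did not overlap.

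The abundant myelin genes differed among themselves. *Mbp*, myelin basic protein, stood at 1262, 1505, 1573 and 1264 CPM and after LPS at 1501, 1877, 1331, 1410 and 1215 CPM, overlapping groups that differed by 0.07 (SE 0.12), or by -0.04 without LPS-vehicle mouse 2. *Mobp*, another myelin protein gene, stood at 93.8, 92.7, 98.9 and 110.3 CPM and after LPS at 130.4, 258, 180.3, 329 and 269 CPM, higher in every LPS-vehicle mouse. The summed CPM of the list were 5774 to 8104 in sham-vehicle and 4194 to 5520 in LPS-vehicle mice, highest in sham-vehicle mouse 4, in which the mitochondrial share was also highest.

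Outside the list, further genes known from oligodendrocytes were among the largest falls or the most abundant genes that fell. They form no fixed list, and no count was made for them. *Pllp*, plasmolipin, stood at 128, 139, 151 and 126 CPM in sham-vehicle mice and at 28.8, 38.5, 27.1, 32.7 and 42.9 CPM after LPS, a log2 fold change of -1.99 (SE 0.13) (edgeR adjusted p = 1.3e-08). *Car2*, carbonic anhydrase 2, stood at 423, 418, 384 and 377 CPM and after LPS at 184, 108, 106, 92.6 and 97.7 CPM, with LPS-vehicle mouse 1 above the other 4. *Gpr37*, a receptor gene, changed by -1.39 (SE 0.09), *Serpinb1a*, a protease inhibitor gene, by -2.69 (SE 0.24) and *Ninj2*, an adhesion molecule gene, by -2.95 (SE 0.49), all without overlap.

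Of 20 astrocyte genes 2 passed as higher, and the median was 0.12. *Gfap*, the intermediate filament of reactive astrocytes, which overlaps *Gm26668*, stood at 124, 99.1, 94.8 and 63.3 CPM in sham-vehicle mice and at 593, 618, 488, 343 and 478 CPM after LPS. *Gjb6*, connexin 30, rose by 1.29 (SE 0.12). Of 37 reactive astrocyte genes 27 passed as higher, with a median of 2.17, and all 37 had a log2 fold change above 0. *Serpina3n*, a secreted protease inhibitor, stood at 112, 93.4, 67.2 and 63.9 CPM and after LPS at 605, 745, 640.0, 363 and 571 CPM. *Htra1*, a secreted serine protease gene that overlaps *Fgfr2* and is in no list, rose by 1.29 (SE 0.13).

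Of 20 neuronal genes 7 were lower at the adjusted p alone (background 8.86%), and 18 had a log2 fold change below 0, with a median of -0.27. At the 2-fold threshold 0 passed with edgeR, limma-voom or DESeq2, and 14 were lower at an unadjusted p under 0.05. *Snap25* and *Syp* had log2 fold changes of -0.27 (SE 0.11) and -0.22 (SE 0.11) with adjusted p values of 0.089 and 0.19 (edgeR). *Tubb3*, a neuronal tubulin gene, changed by -0.96 (SE 0.13), the largest fall of the list, and passed at -1.01 without sham-vehicle mouse 1 or 2 and at -1.03 without LPS-vehicle mouse 2. It overlaps *Gm20388* on the same strand. The summed CPM were 16520 to 19190 in sham-vehicle and 13560 to 15800 in LPS-vehicle mice. Of 18 choroid plexus genes 3 passed as lower and 1 as higher in edgeR, and 5 and 0 in limma-voom. The lower genes numbered 0 without sham-vehicle mouse 2 or 4 or LPS-vehicle mouse 1 or 2 and 5 without sham-vehicle mouse 3. Their sums were 709 to 1131 and 417 to 683 CPM.

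Of 29 genes that respond to glucocorticoids 22 passed as higher, 28 were higher at the adjusted p alone, and the median was 2.03. Their summed CPM were 998 to 1400 in sham-vehicle and 4589 to 6186 in LPS-vehicle mice. *Fkbp5*, the chaperone that restrains the glucocorticoid receptor, stood at 31.5, 24.3, 25.97 and 23.2 CPM and after LPS at 95.6, 136, 115, 111 and 134 CPM. *Sgk1*, the serum and glucocorticoid kinase, stood at 114, 80.8, 80.8 and 88.8 CPM and after LPS at 284, 399, 339, 440.5 and 401 CPM. *Map3k6* stood at 6.93, 3.66, 1.95 and 2.62 CPM and after LPS at 33.5, 47.6, 27.2, 32.9 and 33.9 CPM. For all 3, the lowest LPS-vehicle mouse exceeded the highest sham-vehicle mouse. *Cdkn1a*, a cell cycle inhibitor, rose by 2.41 (SE 0.18) and *Ddit4*, an inhibitor of mTOR signalling, by 1.67 (SE 0.14). Several members of this list, among them *Lcn2*, *Cebpd* and *Nfkbia*, are also induced by inflammatory signals.

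*Mt1* and *Mt2* encode metallothioneins, small proteins that bind zinc and copper. *Mt1* stood at 339, 298, 225 and 141 CPM in sham-vehicle mice and at 1353, 1476, 1739, 1039 and 1143 CPM after LPS, and *Mt2* changed by 2.79 (SE 0.27). Together with *Slc39a14* they were the 3 of 12 metallothionein and zinc genes that passed, and the median of that list was -0.09. Of 26 iron handling genes 8 were higher and 1, *Slc40a1*, lower.

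Of 32 genes of fatty acid storage and use 7 were higher, with a median of 0.15. *Plin4*, a lipid droplet coat protein gene that overlaps *Hdgfl2*, stood at 6.22, 3.70, 1.39 and 1.14 CPM in sham-vehicle mice and at 74.2, 128, 68.05, 107 and 85.9 CPM after LPS, a log2 fold change of 4.83 (SE 0.35). *Pdk4*, the kinase that turns off pyruvate dehydrogenase, stood at 5.16, 5.39, 5.97 and 4.84 CPM and after LPS at 16.9, 28.02, 20.5, 38.2 and 27.3 CPM. Of 25 cholesterol synthesis genes 13 were lower at the adjusted p alone (background 8.86%), and the median was -0.44. With the 2-fold limit 0 passed in edgeR and limma-voom and 1 in DESeq2, and 15 were lower at an unadjusted p under 0.05. *Hmgcs1* and *Sqle*, enzymes of the pathway, changed by -0.82 (SE 0.15) and -0.65 (SE 0.09). *Ch25h*, which makes the oxysterol 25-hydroxycholesterol and overlaps *Gm26902*, stood at 2.05, 1.09, 1.07 and 0.691 CPM and after LPS at 42.03, 47.2, 58.4, 23.2 and 15.02 CPM.

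Other metabolic lists held a few changed genes each. Of 30 glycolysis and hypoxia genes 8 were lower (background 8.86%) and 7 higher (background 11.1%) at the adjusted p alone, and the median was -0.15. At the 2-fold threshold 5 were higher (3 without LPS-vehicle mouse 1). Among the higher genes was *Hk2*, a hexokinase, at 1.52 (SE 0.27). Of 28 xenobiotic genes 4 were higher and 1 lower. *Sult1a1*, a sulfotransferase gene overlapping *Sgf29*, rose by 2.86 (SE 0.23) and *Cyp1b1* by 1.64 (SE 0.24), while *Cyp26b1*, which breaks down retinoic acid, changed by -1.08 (SE 0.19). Of 14 arginine and nitric oxide genes 3 were higher, including *Nos2*, the inducible synthase, at 2.81 (SE 0.65). Of 26 prostanoid and arachidonate genes 5 were higher and 2 lower. *Pla2g3*, a secreted phospholipase gene overlapping *Inpp5j*, stood at 4.59, 4.79, 3.90 and 2.52 CPM and after LPS at 36.7, 38.2, 21.8, 43.7 and 48.02 CPM. *Ptges*, prostaglandin E synthase, which overlaps *Gm13400* on the same strand, rose by 2.54 (SE 0.30), and *Alox12*, a lipoxygenase gene, changed by -3.79 (SE 0.68).

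Of 28 immediate early genes 6 were higher and 3 lower (7 lower without sham-vehicle mouse 2), with a median of 0.11. *Zfp36*, which encodes the RNA-binding protein tristetraprolin that destabilises cytokine transcripts, stood at 10.6, 8.89, 8.21 and 9.68 CPM in sham-vehicle mice and at 45.1, 76.9, 77.5, 37.5 and 28.3 CPM after LPS. *Fosl1*, an AP-1 subunit, rose by 3.63 (SE 0.57). *Egr1*, a gene driven by neuronal activity among other stimuli, stood at 218, 205, 264 and 375 CPM and after LPS at 97.3, 108, 153, 104 and 97.7 CPM, and *Npas4*, a neuronal activity gene, changed by -1.17 (SE 0.24). Of 20 heat shock genes 1 passed, *Cryab*, a small heat shock protein of oligodendrocytes and astrocytes that overlaps *Hspb2*, at -1.41 (SE 0.09). Of 20 clock genes 0 passed in edgeR, limma-voom and DESeq2, and at the adjusted p alone, as at an unadjusted p under 0.05, 7 were higher (background 11.1%) and 2 lower (background 8.86%), led by *Per1* at 0.73 (SE 0.09). Of 24 TGF-beta signalling genes 5 were higher (background 4.68%), with a median of 0.07. At the adjusted p alone 9 were higher (background 11.1%) and 5 lower (background 8.86%).

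Of 35 type I interferon response genes 32 were higher, with a median of 2.19, and of 16 interferon-induced GTPase genes 13, with a median of 2.53. *Igtp*, which overlaps *Irgm2* on the same strand, stood at 4.76, 2.49, 5.26 and 2.47 CPM and after LPS at 36.6, 35.2, 26.6, 7.39 and 23.04 CPM, and *Gbp7*, overlapping *Gm43802*, rose by 1.66 (SE 0.28). LPS-vehicle mouse 4 was lowest of its group for both genes. Of 24 MHC class I presentation genes 13 were higher, of 11 MHC class II genes 3, of 31 JAK-STAT and SOCS genes 11 and of 21 acute phase genes 18. Of 20 NF-kappaB subunit and inhibitor genes 12 were higher, and *Nfkbia* stood at 32.5, 26.7, 34.2 and 44.3 CPM and after LPS at 133, 189, 229, 133 and 99.9 CPM.

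Families formed by gene symbol differed in how many of their members passed. All 6 tested Schlafen genes had a log2 fold change above 0 and 5 passed, with *Slfn2* at 3.82 (SE 0.38). Of 12 PARP genes 5 were higher, with *Parp14*, an ADP-ribosyltransferase, at 2.74 (SE 0.28). Of 50 proteasome genes 2 passed, the immunoproteasome subunits *Psmb8* and *Psmb9*, at 2.26 (SE 0.29) and 1.70 (SE 0.31). Of 22 serpins 7 were higher and 1 lower, of 27 integrins 6 higher and 1 lower, and of 47 tripartite motif genes 7 higher and 2 lower, including *Trim59* at -1.33 (SE 0.18). Of 44 collagens 5 were higher (background 4.68%) and 1 lower (background 0.995%). Of 352 zinc finger (Zfp) genes 3 were higher (5 without sham-vehicle mouse 4), 0.852% of the family against a background of 4.68%.

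Among structural families, 2 of 19 tubulins passed as higher and 1, *Tubb4a*, as lower. At the adjusted p alone 10 were lower (background 8.86%) and 3 higher, with a median of -0.42 and summed CPM of 4302 to 5153 in sham-vehicle against 2334 to 3178 in LPS-vehicle mice. *Tubb4a*, the tubulin of myelinating cells and neurons, stood at 1474, 1329, 1534 and 2064 CPM and after LPS at 697, 986, 816, 670.0 and 691 CPM, and its log2 fold change of -1.05 (SE 0.15) was -0.91, under 2-fold, without sham-vehicle mouse 4. *Tubb6* rose, at 2.31, 1.53, 3.62 and 2.12 CPM and after LPS 22.2, 28.3, 17.4, 19.1 and 17.1 CPM. Of 79 cytosolic ribosomal protein genes 72 lay above 0, the median being 0.21, with 18 higher at the adjusted p alone (background 11.1%). At 2-fold 0 passed in edgeR, limma-voom and DESeq2 and 1 passed without LPS-vehicle mouse 2, and 38 were higher at an unadjusted p under 0.05. The 17 genes of the mitochondrial genome all lay below 0, with a median of -0.75 and 6 lower at the adjusted p alone (background 8.86%). At 2-fold 0 passed as lower in edgeR and DESeq2, 1 in limma-voom and 0 to 4 in the fits without 1 mouse. Sham-vehicle mouse 4 had the largest mitochondrial share.

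Among noncoding genes, *AW112010*, an interferon-induced transcript, stood at 2.88, 2.94, 4.14 and 1.23 CPM in sham-vehicle mice and at 25.2, 18.9, 64.3, 11.8 and 24.6 CPM after LPS. *H19*, an imprinted transcript that hosts *Mir675*, stood at 0.371, 0.442, 0.0797 and 0.247 CPM and after LPS at 2.85, 4.30, 3.15, 5.42 and 2.86 CPM. *Sox2ot*, which spans *Sox2* and other genes on the same strand, stood at 31.6, 34.3, 24.6 and 24.1 CPM and after LPS at 13.9, 12.8, 11.7, 10.9 and 12.1 CPM, lower in every LPS-vehicle mouse.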

How the data were processed

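The authors sequenced stranded mRNA libraries (TruSeq) from isolated brain vessels as single-end 75-base reads, and per the submitters' processing notes used bcl2fastq 2.15.0.4 and STAR 2.5.2a with mm10 and GENCODE M9 basic. The deposited values are raw read counts per gene, 1 column per mouse. Which strand column of STAR was kept is not given in the sources used here. Of the 47643 gene IDs, 47224 matched GENCODE M21, from which types, exon lengths, positions and overlaps were read.

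Genes with at least 10 counts in enough libraries and 15 in total (filterByExpr) were kept, and edgeR 4.0.16 (R 4.3.3) with TMM scaling and the quasi-likelihood test was fitted to all 3 groups with no covariate (common dispersion 0.0334). Fold changes are those of the edgeR fit, and a prior count of 2 entered only the log CPM by which replicate numbers were compared. Single values were compared by the exact permutation test over mice (scipy 1.17.1). A fold against a group at or below a floor of 3 counts in every library is a bound.

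The alternatives were limma-voom (limma 3.58.1), DESeq2 1.42.0, DESeq2 size factors, no filter, a mean count of at least 50, the 9 mice alone, glmTreat, which tests against the 2-fold change, the replicate number as a block, and leaving out each mouse in turn. The fits were tested on simulated data. Replicate numbers are not stated to pair mice.

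The comparison, gene lists and motifs were chosen with earlier results of these data known. Named genes are, per list, up to 3 rises and 3 falls past the threshold with a mean of at least 1 CPM and, for cell and vessel lists, the 2 most abundant members. Added to these are the 10 largest rises outside inflammatory lists and the 25 largest falls without overlap, the 10 most abundant genes past the threshold in each direction, up to 3 rises and 3 falls per symbol family, and *Gfap*, *Pdgfrb*, *Pecam1*, *Syp* and *Aif1*. Fewer are named than the rule gives, and some genes are not reported here. Named outside the rule are *AW112010*, *Abcb1a*, *Abcg2*, *Csf1r*, *Fkbp5*, *Gbp7*, *H19*, *Hmgcs1*, *Igtp*, *Map3k6*, *Nfkbia*, *Ocln*, *Per1*, *Slc16a1*, *Slc7a5*, *Sox2ot*, *Sqle*, *Tmem119* and *Tubb3*, which with the overlap partners and the genes named without values were chosen after their values were seen. Overlaps not named beside their gene include *Tap1* with *Psmb9*, *Lims2* with *Gpr17*, *Fbxl5* with *Bst1*, *Hmgxb3* with *Csf1r*, *Gtf2ird2* with *Ncf1*, *Gm16014* (same strand) and *Gm16015* with *Cd38*, *Gm44716* (same strand) with *Col4a1*, *Atg9b* with *Nos3*, *Ccdc85b* with *Fosl1*, *Gm26542* with *Ltc4s*, *Gm25327* with *Ninj2*, *Gm44545* with *P2ry6*, *Gm44710* with *Zfp36*, *Gm20496* with *Psmb8*, *Gm28863* with *Adm*, *Gm20388* with *Slc7a5*, *Gm43581* and *Gm43585* with *Slc16a1* and *Gm42684* and *Gm42686* with *Abcb1a*. Further annotated genes, not named here, overlap *Ace*, *Adamts9*, *Col4a1*, *Col4a2*, *Csf1r*, *Fkbp5*, *H19*, *Hk2*, *Mbp*, *Nos3*, *Notch4*, *Slc2a1*, *Snap25*, *Sox2ot* and *Syp*. Reads of overlapping genes cannot be told apart where the strand counted is not known or is shared.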

Additional observations from a re-analysis of the deposited data

Results flagged for a closer look

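In 280 gene and group pairs, for each gene whose values are given, the highest and lowest mouse were set against the rest of the group by Dixon's gap ratio at the 95% level, and 14 stood apart. Chance gives about 1 in 20 groups, so the number that stood apart is about what chance alone gives. Of the 14, 4 belong to sham-vehicle mouse 4, 4 to LPS-vehicle mouse 3 and 3 to sham-vehicle mouse 1.

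Sham-vehicle mouse 4, which also had the largest mitochondrial share, was lowest of its group for *Ptprb* at 31.4 CPM, for the cytochrome gene *Cyp1b1* at 2.91 CPM and for the immunoproteasome gene *Psmb8* at 2.27 CPM. The same mouse was highest of its group for *Sqle*, of cholesterol synthesis, at 80.7 CPM. Sham-vehicle mouse 1 was highest for the protease gene *Adamts1* at 15.1 CPM and for *Cdkn1a* at 39.6 CPM, and lowest for *Serpinb1a* at 16.1 CPM.

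LPS-vehicle mouse 3, the library with the fewest counts, was highest of its group for *AW112010* at 64.3 CPM, for *Egr1* at 153 CPM and for *Padi4* at 1.76 CPM, and lowest for *Sqle* at 40.7 CPM. LPS-vehicle mouse 2, in which the summed neutrophil genes were highest, was highest for *S100a9* at 113 CPM, itself a large part of that sum. LPS-vehicle mouse 1 was highest for *Car2* at 184 CPM, and sham-vehicle mouse 2 was lowest of its group for *Cd38* at 2.01 CPM.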

How the results depend on the processing

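Of 140 genes named with values, 116 passed the threshold, and 110 of these passed in every one of 17 other settings in which they were tested, apart from the test against the 2-fold change itself. The others were the transporter genes *Abca1*, *Ager* and *Mfsd2a*, which lie next to 2-fold, with *Tubb4a*, *Gpr17* and *Notch4*. The test against the 2-fold change left 403 of 809 higher and 36 of 172 lower genes, 175 of 283 and 20 of 57 list members, and 51 of 98 and 8 of 27 family members. A mean count of at least 50 (13860 genes) left 113 lower and 635 higher genes. Other tools, scalings and filters gave 770 to 842 higher and 168 to 210 lower genes. Without single mice the counts were 743 to 819 higher and 141 to 180 lower genes, 264 to 287 and 50 to 62 list members, and 91 to 98 and 24 to 31 family members. Genes whose groups did not overlap numbered 1673 higher and 1458 lower, and 1846 to 2187 and 1632 to 2130 without single mice, where fewer mice must be apart. The mitochondrial difference ranged from -3.94 (p = 0.0357, exact permutation test, without sham-vehicle mouse 2) to -1.86 points. The sign turned for *Csf1r* (-0.01 without sham-vehicle mouse 4, up to 0.20 without others) and *Mbp* (-0.04 without LPS-vehicle mouse 2, up to 0.13). The cause of these changes was not tested. With the replicate number as a block, 788 genes were higher and 184 lower, 280 and 63 list members and 95 and 31 family members passed, *Notch4* lost its call at 0.88 and *Tmem119* passed at -1.24. Deviations of same-numbered mice correlated at r = -0.01 to 0.07 over genes, and those of differently numbered mice at -0.14 to 0.06. These values do not settle whether the numbers pair mice. As no source states it, the numbers were taken as names only. The depth of 7813559 counts in LPS-vehicle mouse 3 limits what can be seen of genes near 0.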

Other observations

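Of 58 genes of vessels and glia that encode receptors with 7 transmembrane domains, 6 passed as lower and 13 as higher, with a median of -0.01. The lower genes were *Gpr34*, *P2ry12*, *P2ry13*, *Aplnr*, *Gpr37* and *Lpar1*. Among purinergic receptors, 2 of 14 were lower and 2 higher.

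The subunits of the phagocyte NADPH oxidase led the antioxidant and redox list, in which 6 of 28 genes passed as higher. *Cybb*, its catalytic subunit, stood at 1.34, 0.684, 0.279 and 0.296 CPM in sham-vehicle mice and at 11.4, 16.2, 31.2, 9.31 and 5.04 CPM after LPS, and *Ncf1*, a cytosolic subunit, rose by 2.66 (SE 0.18). Of 12 tryptophan and NAD genes 5 were higher. *Bst1* and *Cd38*, which encode NAD-consuming surface enzymes, rose by 2.97 (SE 0.53) and 1.66 (SE 0.32). In the amino acid response list 4 of 21 genes were higher, among them *Trib3*, a pseudokinase gene, at 1.29 (SE 0.29).

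*Notch4*, an endothelial Notch receptor gene, rose by 1.09 (SE 0.23), the 1 of 17 Notch genes that passed, and did not pass without LPS-vehicle mouse 5. *Gpr17*, a receptor gene of oligodendrocyte precursors, changed by -1.14 (SE 0.22), the 1 of 12 precursor genes that passed, and did not pass without LPS-vehicle mouse 2. Potassium channel genes (Kcn) were lower in 3 of 81 cases (background 0.995%), in 1 without sham-vehicle mouse 1 or LPS-vehicle mouse 2.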
